A study of Mus musculus with 23 samples.

Results

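The comparison set the 4 whole-jejunum libraries taken on day 3 of egg white access against the 5 taken on day 1. These are 9 of the 23 libraries of the series, chosen by their labels. The comparison itself was chosen with earlier results of these data known. Day 3 held 2 Cpa3Cre/+ and 2 Cpa3+/+ libraries, and day 1 held 2 Cpa3Cre/+ and 3 Cpa3+/+ libraries. Each Cpa3Cre/+ group held 1 male and 1 female mouse, and all Cpa3+/+ mice were female. Every mouse had been immunized by injections of 25 µg ovalbumin in 2 mg alum into the peritoneum, the first on day 0 and the second on day 14. From day 20 a bottle of plain water stood beside a bottle containing 20% egg white and 8% sugar. Day 3 mice had this choice from day 20 to day 22, and day 1 mice on day 20. The series' design calls Cpa3Cre/+ mice mast cell-deficient and Cpa3+/+ mice wild type. The Cpa3Cre/+ mice carry Cre in a single copy of Cpa3, the mast cell carboxypeptidase gene. The sources used here give neither ages, nor the egg white drunk by each mouse, nor the hour of collection. Days of access and time since immunization differ together between the groups and cannot be told apart.

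Egg white is rich in ovalbumin, the protein to which these mice had been sensitized. In sensitized mice, allergen in the gut activates mast cells through IgE on the receptor FcεRI, and mucosal mast cells then accumulate in the epithelium and store chymases such as Mcpt1. The jejunal wall itself is layered: villi and crypts with their immune cells line the lumen, and outside them lie sheets of smooth muscle with the nerve networks between and beneath them. A library of the whole wall holds RNA of all of these layers in the proportions of the piece taken.

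The libraries held 12129212 to 19342046 counts each, with 5.39% to 8.11% of counts on mitochondrial genes. Markers of absorptive enterocytes, the main lining cell of the jejunum, summed to 60640 to 74300 CPM (counts scaled to an equal library size) on day 3 and 47600 to 105000 CPM on day 1. Cpa3+/+ day 1 replicate 2 stood apart. Its log2 CPM values correlated at 0.942 and 0.944 with its group mates, against 0.979 to 0.987 for the other pairs within groups, and it alone lay far out on the first principal component, which held 42.3% of the variance. Results that rest on this library are given with and without it. Apart from the differing sexes, no label states that the libraries in a group are different animals, and the p-values therefore reflect library-to-library spread that could be technical.

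Day 3 jejunum had higher levels of smooth muscle and enteric nerve genes than day 1 jejunum in both genotypes. Mast cell proteases were higher in Cpa3+/+ day 3 libraries. The metalloproteinase gene Mmp10, the phospholipase gene Pla2g7 and several immunoglobulin variable segments were lower on day 3. Macrophage and B cell genes had negative medians within Cpa3Cre/+, where 1 day 1 library was high, and medians near 0 within Cpa3+/+. No single gene passed the test after correction. With edgeR's quasi-likelihood test, genotype as a covariate and Benjamini-Hochberg adjustment over 16240 genes, 0 genes were called higher (0%) and 0 lower (0%), and the smallest adjusted p was 0.552. At an unadjusted p under 0.05 there were 864 genes (5.32%), of which 594 were higher (3.66%) and 270 lower (1.66%). All 4 day 3 libraries lay above all 5 day 1 libraries for 313 genes (1.93%) and below them for 93 genes (0.573%). DESeq2 on the same counts called 28 genes higher (0.172%) and 13 lower (0.08%) at an adjusted p under 0.05. Genes with a positive log2 fold change made up 49.1% of those tested, and those with a negative one 50.9%, and the median was -0.01. Genes below are therefore described by their values, with the DESeq2 adjusted p where that tool made a call.

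Smooth muscle genes were higher on day 3 in nearly every member. Of 19 genes, all tested, 18 had a positive log2 fold change, with a median of 0.79. An unadjusted p under 0.05 was reached by 16, all higher, and in 10 the days did not overlap. Over all genes, 3.66% were higher at that level and 1.93% were higher without overlap. DESeq2 called 4 of the 19. The summed level of the list was 7583 and 5274 CPM in Cpa3Cre/+ day 3 libraries and 4206 and 4369 CPM in Cpa3+/+ day 3 libraries. On day 1 it was 3453 and 3430 CPM in Cpa3Cre/+ libraries and 3789, 2009 and 2827 CPM in Cpa3+/+ libraries. The lowest day 3 library thus lay above the highest day 1 library. The median difference was 0.97 within Cpa3Cre/+ and 0.69 within Cpa3+/+. Without Cpa3+/+ day 1 replicate 2 it was 0.71 in both together and 0.48 within Cpa3+/+. At an unadjusted p under 0.05, 13 of the 19 were higher within Cpa3Cre/+, where 1.5% of all genes were. Within Cpa3+/+ 7 were, where 5.7% of all genes were. With single libraries left out in turn the median over both genotypes ranged from 0.61, without Cpa3Cre/+ day 3 replicate 1, to 0.93. In bulk tissue, fewer or more cells of a type and less or more RNA per cell cannot be told apart.

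The contractile proteins and their intermediate filaments make up most of the list. Des encodes desmin, the muscle intermediate filament, and lies on chromosome 1 from 75360329 to 75368579 on the plus strand (GRCm38). Its level was 733 and 341 CPM in Cpa3Cre/+ and 275 and 404 CPM in Cpa3+/+ libraries on day 3, against 156 and 192 CPM in Cpa3Cre/+ and 207, 93.3 and 95.9 CPM in Cpa3+/+ libraries on day 1. Every day 3 value was above every day 1 value, and the log2 fold change was 1.48 ± 0.30 (SE, edgeR adjusted p = 0.552, DESeq2 adjusted p = 0.00551). Myl9, a regulatory light chain of smooth muscle myosin on chromosome 2, had 608, 313, 264 and 321 CPM on day 3 and 184, 221, 216, 137 and 124 CPM on day 1, again without overlap (1.02 ± 0.23, DESeq2 adjusted p = 0.0316). Actg2, the enteric smooth muscle actin, had 613 and 305 CPM in Cpa3Cre/+ and 150 and 219 CPM in Cpa3+/+ day 3 libraries, against 70.9 to 152 CPM over the 5 day 1 libraries. Here the lowest day 3 library fell just within the day 1 range, and the log2 fold change was 1.21 ± 0.30 (DESeq2 adjusted p = 0.0396). Myh11, the smooth muscle myosin heavy chain, was higher by 0.71 ± 0.17 (DESeq2 adjusted p = 0.0316). Acta2, Synm, Cnn1 and Tpm2 (smooth muscle actin, synemin, calponin and a tropomyosin) showed no overlap between the days, with log2 fold changes of 0.79, 1.08, 0.99 and 1.01. Tagln was at 1.01 with overlapping days. Myocd, the coactivator that drives the smooth muscle programme, was at 0.64 ± 0.51 with overlapping days.

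**Figure D1:**
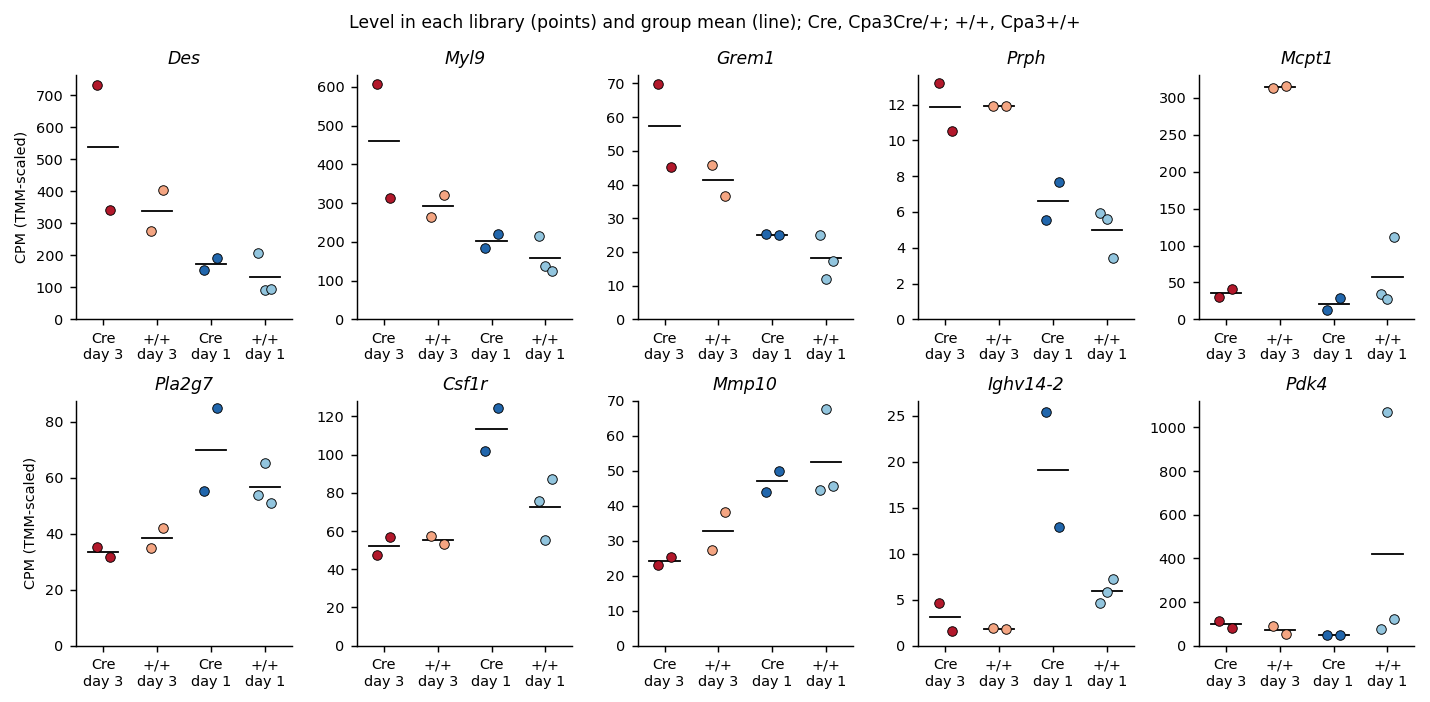
Level of 10 genes in each of the 9 libraries, in CPM on a linear axis from 0, with points for libraries and lines for group means; Cpa3Cre/+ and Cpa3+/+ day 3 libraries stand left of the day 1 libraries. Des, Myl9, Grem1 and Prph are higher in all 4 day 3 libraries than in all 5 day 1 libraries, Pla2g7, Mmp10 and Ighv14-2 are lower in all 4, Csf1r is lower with 1 day 1 library inside the day 3 range, Mcpt1 is high in the Cpa3+/+ day 3 libraries, and 1 Cpa3+/+ day 1 library holds a Pdk4 level of 1071 CPM.

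Many smooth muscle genes are switched on by serum response factor with myocardin at an element called the CArG box, so the stretches of promoter that hold such an element are shown here beside their genes' values. The element was searched as CC, then 6 bases that are all A or T, then GG. RefSeq windows of 300 bases (GRCm38.p6, 250 before and 50 after the start) were matched for 14 of the 19 genes. A CArG box was found in 1 of them, against 1.57% of 27025 windows of as many genes. When up to 1 of the 6 inner bases could be other than A or T, 3 of the 14 windows held one, against 10% of all windows. The stretches that hold them are given 5′ to 3′ on the gene's strand, with the boxes in capitals. The stretch of Myl9 is chr2:156775291-156775386 on the plus strand, 173 to 78 bases before the start. That of Acta2 is chr19:34255386-34255469 on the minus strand, 96 to 13 bases before the start, and that of Synm is chr7:67759960-67759992 on the minus strand, 250 to 218 bases before it. The first box of Myl9 is the exact one.
Myl9: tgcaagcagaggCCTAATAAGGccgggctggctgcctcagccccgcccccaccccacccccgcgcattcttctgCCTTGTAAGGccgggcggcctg
Acta2: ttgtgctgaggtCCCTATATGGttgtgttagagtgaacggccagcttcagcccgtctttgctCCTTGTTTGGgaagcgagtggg
Synm: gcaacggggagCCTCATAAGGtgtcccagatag
The box reads the same class of letters on both strands, so searching 1 strand covered both. A match describes letters in a window and is not evidence of binding, and the other 11 windows had no such letters.

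Several of the genes with the smallest p in the higher direction also belong to muscle, though they were not on the list. Myom1, a myomesin of the sarcomere's M band, had 24.4, 25.7, 15.4 and 19.4 CPM on day 3 and 12.2, 10.4, 9.66, 10.1 and 9 CPM on day 1 (log2 fold change 1.00 ± 0.15, DESeq2 adjusted p = 2.81e-05). It had the smallest unadjusted edgeR p of all genes, 4.11e-05. Cav3, the muscle caveolin, was higher by 1.81 ± 0.38 (DESeq2 adjusted p = 0.0463). Hspb6, a small heat shock protein of muscle, was higher by 0.92 ± 0.18 and Rbpms2, an RNA-binding protein of visceral smooth muscle, by 1.00 ± 0.20 (DESeq2 adjusted p = 0.0102 and 0.00908). Jph2, a junctophilin that ties the surface membrane to calcium stores, was at 1.07 ± 0.23 and Dmpk, the myotonic dystrophy kinase gene, at 1.09 ± 0.25 (DESeq2 adjusted p = 0.0286 and 0.0316). Hand1 and Hand2, transcription factors of the gut mesenchyme and enteric nerves, were at 1.29 ± 0.30 and 1.15 ± 0.24 (DESeq2 adjusted p = 0.0316 and 0.0162). Jph2, Dmpk, Hand1 and Hand2 were chosen after their values were seen. None of these genes overlapped between the days. The remaining genes named by the rule for the higher direction were Adam33, Sntg2, Ldhb, Plin4, Wasf1, Pitpnm3 and Pcp4l1, at 0.90 to 1.29, and the homeobox gene Hoxb7. DESeq2 called the first 7 of these except Wasf1, with adjusted p of 0.00276 to 0.022, and did not call Hoxb7. Hoxb7 had 1.74 to 2.04 CPM on day 3 and 0.61 to 0.892 CPM on day 1, and its neighbour Hoxb6 had 1.94 to 2.88 CPM on day 3 and 1.07 to 1.80 CPM on day 1. Both showed no overlap.

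Grem1, a BMP antagonist made by muscle and fibroblasts around the crypts, had 69.7 and 45.1 CPM in Cpa3Cre/+ and 45.9 and 36.6 CPM in Cpa3+/+ libraries on day 3. On day 1 it had 25.2 and 25.1 CPM in Cpa3Cre/+ and 24.9, 12 and 17.3 CPM in Cpa3+/+ libraries. All day 3 libraries were above all day 1 libraries, and the log2 fold change was 1.19 in each genotype and 1.19 ± 0.21 in both (DESeq2 adjusted p = 0.00227).

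Enteric neuron and glia genes were higher on day 3 as well. Of 24 genes, 23 were tested and 22 had a positive log2 fold change, with a median of 0.67. An unadjusted p under 0.05 was reached by 14, all higher, where 3.66% of all genes were higher. There was no overlap in 8, where 1.93% of all genes were higher without overlap. The summed level was 163.8 and 153.9 CPM in Cpa3Cre/+ and 130.4 and 119.4 CPM in Cpa3+/+ libraries on day 3, against 81.63 and 104.7 CPM in Cpa3Cre/+ and 94.87, 88.7 and 69.81 CPM in Cpa3+/+ libraries on day 1. The days did not overlap, and the median was 0.68 within Cpa3Cre/+ and 0.70 within Cpa3+/+. It was 0.67 without Cpa3+/+ day 1 replicate 2.

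Among the neuronal genes, Prph, the peripheral neuron intermediate filament peripherin, had 13.2, 10.5, 11.9 and 11.9 CPM on day 3 and 5.53, 7.7, 5.94, 5.6 and 3.43 CPM on day 1 (1.07 ± 0.22, DESeq2 adjusted p = 0.00928). The neuropeptide genes Vip, Calcb and Nmu were at 0.62, 1.27 and 1.13, each without overlap between the days. Ret, the receptor of the enteric neuron lineage, was closer to 0 at 0.17 ± 0.18. Cpe, the carboxypeptidase that processes peptide hormones in nerve and endocrine cells, had 62.3 to 86.6 CPM on day 3 and 31.9 to 52.1 CPM on day 1 (0.77 ± 0.16, DESeq2 adjusted p = 0.0316).

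Other cells of the wall showed smaller or no shared differences. The 11 genes of interstitial cells of Cajal, the pacemaker cells, had a median of 0.28, and Kit, which marks them as well as mast cells, had 13.9 to 19.6 CPM on day 3 and 16.3 to 20.7 CPM on day 1 (-0.13 ± 0.15). The 21 collagen and fibroblast genes had a median of -0.03, with -0.56 within Cpa3Cre/+ and 0.31 within Cpa3+/+. Mgp, a matrix protein, and Lum, the proteoglycan lumican, were exceptions at 0.86 ± 0.20 and 0.64 ± 0.19 without overlap. Endothelial and lymphatic genes had a median of -0.03, with -0.34 within Cpa3Cre/+ and 0.09 within Cpa3+/+. Over both genotypes the muscle and nerve lists thus stood at 0.79 and 0.67, and the interstitial cell of Cajal list at 0.28. The collagen and endothelial lists stood near the median of all genes, with opposite signs within the genotypes. Of the 21 collagen and fibroblast genes, 4 were positive within Cpa3Cre/+ and 18 within Cpa3+/+.

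The smooth muscle sum was also variable in the other states of the series. In libraries scaled together over all 23, it ranged from 2615 to 13060 CPM in naive mice, 2551 to 3980 CPM in immunized mice, 2008 to 3923 CPM on day 1, 4279 to 7777 CPM on day 3 and 2080 to 5441 CPM on day 5. The enteric nerve sum ranged from 60.02 to 386.7, 70.11 to 106.1, 69.75 to 107, 123.6 to 168 and 61.55 to 145 CPM in the same order. The 4 day 3 libraries thus lay within the span of the 5 naive libraries, and the library highest for muscle was also the library highest for nerve, a naive Cpa3Cre/+ one. The sources used here do not give how much outer wall each piece held, and the part of this in the day 3 values was not tested.

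**Figure D2:**
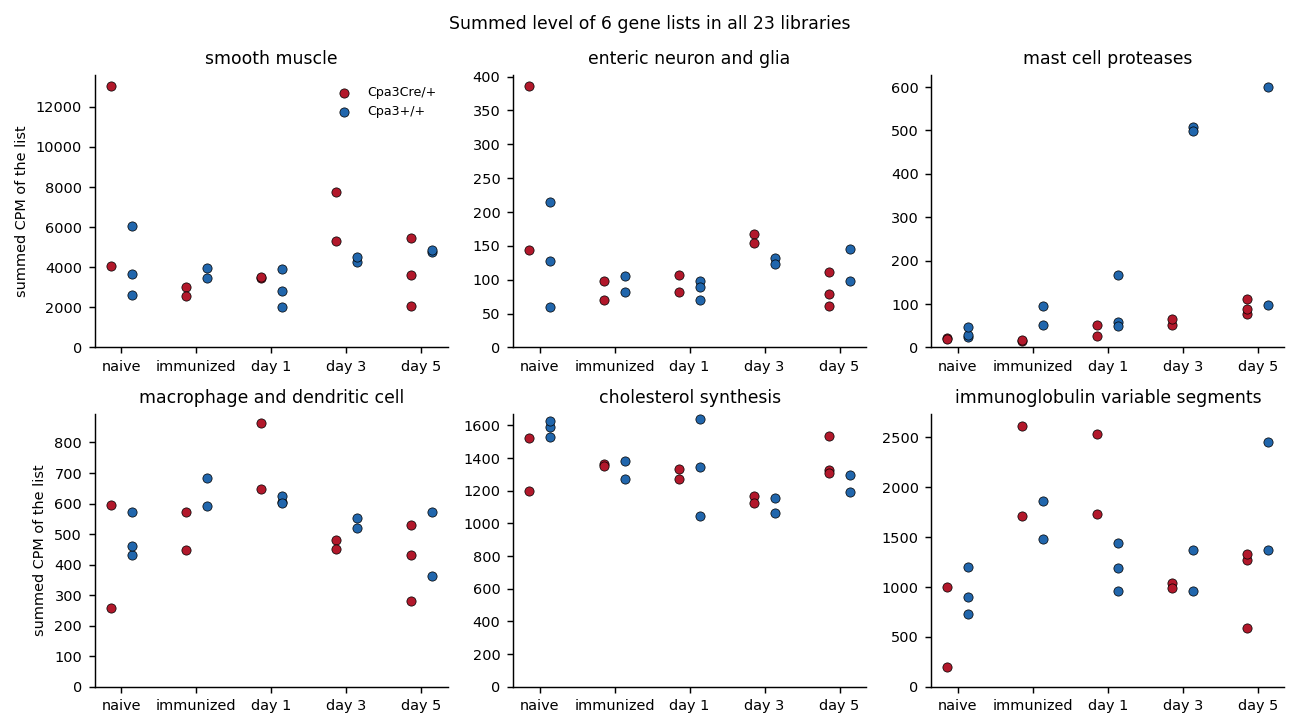
Summed CPM of 6 gene lists in each of the 23 libraries (linear axes from 0), by state in time order, with Cpa3Cre/+ libraries left of Cpa3+/+ libraries. Muscle and nerve sums on day 3 lie above those on day 1 but within the naive span, the mast cell protease sum on day 3 is near 500 CPM in both Cpa3+/+ libraries, and the macrophage and dendritic cell sum on day 3 lies below that on day 1.

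Mast cell proteases were higher on day 3 in Cpa3+/+ mice. Of 11 genes, 9 were tested and all 9 had a positive log2 fold change, with a median of 1.74. The median was 0.50 within Cpa3Cre/+ and 2.45 within Cpa3+/+. At an unadjusted p under 0.05 there were 0 of 9 within Cpa3Cre/+, where 1.5% of all genes were higher at that level, and 9 of 9 within Cpa3+/+, where 5.7% were. The summed level was 51.06 and 65.05 CPM in Cpa3Cre/+ and 499.3 and 482.3 CPM in Cpa3+/+ libraries on day 3. On day 1 it was 27.21 and 51.71 CPM in Cpa3Cre/+ and 56.76, 50.08 and 167.7 CPM in Cpa3+/+ libraries. Both Cpa3+/+ day 3 libraries were above all other libraries, and Cpa3+/+ day 1 replicate 3 was the highest of day 1.

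Mcpt1, the mucosal mast cell chymase on chromosome 14 from 56017971 to 56020384, had 30.6 and 41 CPM in Cpa3Cre/+ and 313 and 316 CPM in Cpa3+/+ libraries on day 3. On day 1 it had 12.3 and 28.8 CPM in Cpa3Cre/+ and 33.8, 27.8 and 111 CPM in Cpa3+/+ libraries. The log2 fold change was 0.80 ± 0.62 within Cpa3Cre/+ and 2.45 ± 0.55 within Cpa3+/+, and the difference between the genotypes was -1.65 ± 0.83 (edgeR adjusted p = 0.742). Mcpt2, its close relative, had 9.4 and 16 CPM in Cpa3Cre/+ and 123 and 110 CPM in Cpa3+/+ day 3 libraries, against 4.48 to 36.8 CPM over day 1. Mcpt9 was at 0.87 within Cpa3Cre/+ and 3.46 within Cpa3+/+ (2.75 ± 0.61 in both, DESeq2 adjusted p = 0.0291). Mcpt4, the connective tissue type chymase, was at 0.23 within Cpa3Cre/+ and 2.82 within Cpa3+/+. These genes are near-identical copies of each other in parts, and reads may be shared among them.

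Cpa3, the gene that carries Cre, had 0.947 and 0.696 CPM in Cpa3Cre/+ and 16.9 and 12.6 CPM in Cpa3+/+ libraries on day 3. On day 1 it had 0.614 and 0.216 CPM in Cpa3Cre/+ and 1.78, 5.69 and 6.49 CPM in Cpa3+/+ libraries. Every Cpa3Cre/+ library was below every Cpa3+/+ library, as the labels have it. Fcer1a, the IgE-binding chain of FcεRI, had 0.271 and 0.497 CPM in Cpa3Cre/+ and 5.53 and 4.77 CPM in Cpa3+/+ day 3 libraries, against 0.307 to 3.36 CPM on day 1, where Cpa3+/+ replicate 3 was highest. Ms4a2, the β chain of the same receptor, was at 0.15 within Cpa3Cre/+ and 2.34 within Cpa3+/+. Fcer1a and Ms4a2 are shared with basophils, and the 5 basophil genes tested had a median of -0.25 within Cpa3Cre/+ and 1.63 within Cpa3+/+. Mcpt8, Prss34 and Cd200r3, also on the basophil list, had at most 3 counts in any library compared and were not tested. Of the 5 tested, all 5 were positive within Cpa3+/+ and 1 within Cpa3Cre/+. At an unadjusted p under 0.05, 4 were higher within Cpa3+/+, where 5.7% of all genes were. Whether basophils changed was not tested. The 13 other mast cell genes tested had a median of -0.13, with -0.25 within Cpa3Cre/+ and 0.20 within Cpa3+/+. Of the 13, 2 were positive within Cpa3Cre/+ and 8 within Cpa3+/+. Without Cpa3+/+ day 1 replicate 2 the medians were 0.01 over both genotypes and 0.43 within Cpa3+/+.

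Many immunoglobulin variable segments were lower on day 3 within Cpa3Cre/+, while within Cpa3+/+ segments went both ways. The difference between the genotypes was not tested for the list as a whole. Immunoglobulin variable segments were examined after their values were seen. Of 169 tested, 128 had a negative log2 fold change, where 50.9% of all genes did, and the median was -0.55. An unadjusted p under 0.05 in the lower direction was reached by 43, and 5 were lower without overlap. Over all genes these shares were 1.66% and 0.573%. DESeq2 called 9 of the segments, which made up 9 of its 13 lower calls. Without Cpa3+/+ day 1 replicate 2 it did not call Igkv4-91, Igkv6-20 and Ighv3-4 (adjusted p = 0.263, 0.226 and 0.209). It then called Ighv1-9, Igkv13-85, Igkv8-27, Ighv14-3, Igkv6-13, Ighv8-11, Igkv2-109, Ighv1-67 and Ighv1-66 as lower instead. Ighv3-4 had 9.35 CPM in Cpa3Cre/+ day 1 replicate 2 and 0.369 to 1.34 CPM in the other day 1 libraries. The median was -1.13 within Cpa3Cre/+, with 23 of 169 positive, and -0.03 within Cpa3+/+, with 81 positive. At an unadjusted p under 0.05, 17 were lower and 12 higher within Cpa3+/+, where 4.39% and 5.7% of all genes were. Without Cpa3+/+ day 1 replicate 2 the median was -0.66 over both genotypes and -0.20 within Cpa3+/+. The summed level was 1016 and 993 CPM in Cpa3Cre/+ and 943.3 and 1323 CPM in Cpa3+/+ libraries on day 3, against 1720 and 2482 CPM in Cpa3Cre/+ and 1393, 958.5 and 1195 CPM in Cpa3+/+ libraries on day 1. The Cpa3Cre/+ day 1 libraries were thus the highest, and the Cpa3+/+ days overlapped. A plasma cell clone uses a single heavy chain segment, and similar segments can share reads.

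Ighv14-2, a heavy chain segment, had 4.60, 1.59, 1.91 and 1.82 CPM on day 3 and 25.4, 12.9, 4.68, 5.88 and 7.25 CPM on day 1 (-2.14 ± 0.37, DESeq2 adjusted p = 7.21e-05). Igkv8-28, a kappa light chain segment, was at -1.80 ± 0.35 and Igkv10-96 at -0.79 ± 0.18, both without overlap (DESeq2 adjusted p = 0.0014 and 0.0316). The plasma cell and immunoglobulin list, which holds the constant regions, did not share this direction throughout. Of its 20 genes tested, 7 had a positive and 13 a negative log2 fold change, with a median of -0.09 and values from -1.80 to 2.28. At an unadjusted p under 0.05, 3 of the list's genes were lower, where 1.66% of all genes were. Its median was -0.60 within Cpa3Cre/+ and 0.20 within Cpa3+/+, and 0.15 over both genotypes without Cpa3Cre/+ day 1 replicate 2, when 22 members were tested. Among constant regions, Igha, the heavy chain of the gut's main antibody class IgA, had 2206 to 3330 CPM on day 3 and 1854 to 5554 CPM on day 1 (-0.12 ± 0.27). Ighm was at -1.09 ± 0.42, with 173 CPM in Cpa3Cre/+ day 1 replicate 2 and 32.8 to 62 CPM in the other day 1 libraries, against 23.9 to 42.7 CPM on day 3. Ighg2b was at -1.39 ± 0.39 and Ighg3 at -1.56 ± 0.54, with overlapping days.

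B cell follicle genes were high in 1 day 1 library. Of 22 genes, 16 were tested and the median was -0.67. An unadjusted p under 0.05 was reached by 4, all lower, where 1.66% of all genes were lower. The median was -1.41 within Cpa3Cre/+ and -0.01 within Cpa3+/+. Within Cpa3Cre/+, 10 of the 16 were lower at an unadjusted p under 0.05, where 2.61% of all genes were, and within Cpa3+/+ 0 were, where 4.39% of all genes were. Its sum was 185.8 CPM in Cpa3Cre/+ day 1 replicate 2, the male of that group, and 64.16 to 75.55 CPM in the other day 1 libraries, against 58.59 to 76.7 CPM on day 3. Without that library the median was -0.29 over both genotypes and -0.41 within Cpa3Cre/+, which then held a single day 1 library, and 0 of the 16 had an unadjusted p under 0.05. Peyer's patches were removed from the pieces, per the labels, and what remained of other follicles was not tested.

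Macrophage and dendritic cell genes had mostly negative values within Cpa3Cre/+ and no common direction within Cpa3+/+. Of 23 genes, all tested, 20 had a negative log2 fold change, with a median of -0.36. An unadjusted p under 0.05 was reached by 2, both lower, where 1.66% of all genes were lower. Without Cpa3+/+ day 1 replicate 2, 7 were lower at that level, where 4.17% of all genes were, and 1 of 23 was positive. The medians were then -0.34 over both genotypes and -0.06 within Cpa3+/+. The summed level was 469.4 and 449.9 CPM in Cpa3Cre/+ and 543.9 and 503.5 CPM in Cpa3+/+ libraries on day 3, against 642.6 and 845.1 CPM in Cpa3Cre/+ and 583.3, 626.4 and 603.8 CPM in Cpa3+/+ libraries on day 1. The sums did not overlap, but the member medians differed by genotype, at -0.74 within Cpa3Cre/+ and 0.06 within Cpa3+/+. Within Cpa3Cre/+ 9 of 23 were lower at an unadjusted p under 0.05, where 2.61% of all genes were. Within Cpa3+/+ 13 of 23 were positive. Without Cpa3Cre/+ day 1 replicate 2, the highest library, the medians were -0.23 over both genotypes and -0.43 within Cpa3Cre/+. The difference between the genotypes was not tested for the list as a whole. Csf1r, the receptor on which macrophages depend, had 47.6, 57.1, 57.3 and 53.1 CPM on day 3 and 102, 124, 75.6, 55.1 and 87.2 CPM on day 1 (-0.72 ± 0.19). Only Cpa3+/+ day 1 replicate 2 lay within the day 3 range, and without it the value was -0.85 (DESeq2 adjusted p = 0.000451). Adgre1, the macrophage marker F4/80, was at -0.64 ± 0.29, and Cybb, the phagocyte oxidase subunit, at -0.93 ± 0.24. DESeq2 called Adgre1 and Cybb without Cpa3+/+ day 1 replicate 2 (adjusted p = 0.0293 and 0.000158), but not with it. Pla2g7, a lipoprotein-associated phospholipase made by macrophages, had 35.4, 31.9, 35.1 and 42.2 CPM on day 3 and 55.3, 84.9, 54, 65.2 and 51.1 CPM on day 1, without overlap (-0.78 ± 0.18, DESeq2 adjusted p = 0.0368).

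All 12 MHC class II genes had a negative log2 fold change, with a median of -0.33 that split into -0.87 within Cpa3Cre/+ and 0.19 within Cpa3+/+. Their sum was 984.9 to 1198 CPM on day 3 and 1100 to 2126 CPM on day 1, with Cpa3Cre/+ day 1 replicate 2 highest, and without that library the median was -0.11. The 18 complement genes tested had a median of -0.24. At an unadjusted p under 0.05, 4 were lower, where 1.66% of all genes were. Among the 4 was C6, a part of the membrane attack complex, at -0.63 ± 0.18 without overlap. The 28 T cell and intraepithelial lymphocyte genes tested had a median of -0.18, with -0.46 within Cpa3Cre/+ and 0.09 within Cpa3+/+. At an unadjusted p under 0.05, 2 were lower, where 1.66% of all genes were. Without Cpa3+/+ day 1 replicate 2 the medians were -0.29 over both genotypes and -0.23 within Cpa3+/+. In that case 1 of 28 was positive and 6 were lower at that level, where 4.17% of all genes were. Cd4, the coreceptor of helper T cells, was at -0.65 ± 0.22 with overlapping days. Further genes named by the rule for the lower direction were Ankrd44, Scube1, Ptprn2, Rdh12, Fyb, Itga4, Garem1 and Ttc39aos1, at -1.74 to -0.69. Mmp10, a stromelysin, had 23, 25.4, 27.4 and 38.3 CPM on day 3 and 43.9, 50.1, 44.4, 67.8 and 45.5 CPM on day 1. The days did not overlap, and the log2 fold change was -0.80 ± 0.18 (DESeq2 adjusted p = 0.0316).

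**Figure D3:**
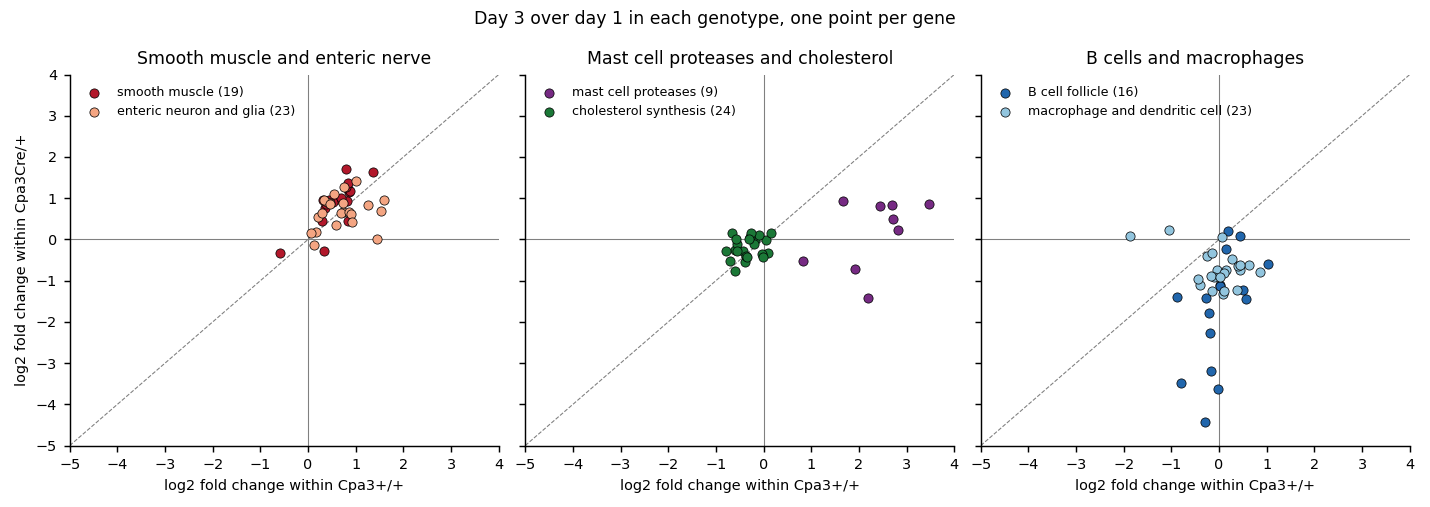
Log2 fold change of day 3 over day 1 within Cpa3Cre/+ (vertical) against that within Cpa3+/+ (horizontal) for the members of 6 gene lists, with 1 point per gene and the dashed line at equal values. Muscle and nerve genes lie in the upper right near the line, mast cell proteases lie to the right with a median of 0.50 in Cpa3Cre/+ and 2.45 in Cpa3+/+, cholesterol genes lie mostly below 0 in both, and B cell and macrophage genes lie mostly below 0 in Cpa3Cre/+ and around 0 in Cpa3+/+.

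Cholesterol genes had mostly negative values on day 3 against day 1 in both genotypes. Enterocytes make cholesterol under the control of SREBP2, which is active when cell cholesterol is low. Of 24 genes, all tested, 22 had a negative log2 fold change, with a median of -0.30, and 3 had an unadjusted p under 0.05, all lower. The median was -0.26 within Cpa3Cre/+ and -0.36 within Cpa3+/+. Fdft1, squalene synthase, had 30.9, 28.1, 27.2 and 30.9 CPM on day 3 and 38.8, 47.4, 49.6, 32.4 and 32.6 CPM on day 1, without overlap (-0.46 ± 0.16). Cpa3+/+ day 1 replicate 2 was the lowest day 1 library for several members. Sqle, squalene epoxidase, had 19 to 23.9 CPM on day 3, against 31.9 and 36 CPM in Cpa3Cre/+ and 46.2, 12.6 and 36.3 CPM in Cpa3+/+ libraries on day 1. Without that library 12 of the 24 had an unadjusted p under 0.05 in the lower direction, while the share over all genes was 4.17% without it, against 1.66% with it. DESeq2 without it gave an adjusted p of 0.00133 for Sqle and 0.00567 for Hmgcs1, the synthase at the head of the pathway. The list's sum was 1137 and 1124 CPM in Cpa3Cre/+ and 1047 and 1114 CPM in Cpa3+/+ libraries on day 3, against 1318 and 1246 CPM in Cpa3Cre/+ and 1585, 1044 and 1344 CPM in Cpa3+/+ libraries on day 1. Among fatty acid synthesis genes, Acly, which supplies acetyl-CoA, was at -0.39 ± 0.12 and Acacb at 0.87 ± 0.22, both without overlap.

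Glucocorticoid-induced genes, clock repressors and red blood cell genes were highest in Cpa3+/+ day 1 replicate 2, and the first of these lists changed sign without it. The 19 glucocorticoid-induced genes tested had a median of -0.71, and of 0.27 without Cpa3+/+ day 1 replicate 2. Their sum was 1083 to 1609 CPM on day 3 and 911 to 1416 CPM in 4 day 1 libraries, against 9852 CPM in that library. Pdk4, the kinase that spares glucose in fasting, had 54.2 to 114 CPM on day 3 and 47.1 to 121 CPM in 4 day 1 libraries, with 1071 CPM in Cpa3+/+ day 1 replicate 2. Its log2 fold change was -0.87 ± 1.07, and 0.27 without that library. The 13 clock repressors had a median of -0.64 with it and -0.38 without it, when 11 of 13 were negative. Within Cpa3Cre/+ their median was 0.12, and within Cpa3+/+ -1.37 with and -0.91 without that library. Their sum was 421.4 to 624.7 CPM on day 3, and 730.1 and 730.8 CPM in the other Cpa3+/+ day 1 libraries, so these also lay above every day 3 library. Per1, which is both a clock gene and induced by glucocorticoid, was at -1.35 ± 0.90 with it and -0.39 without it. The 6 blood genes tested had a median of -0.94 with it and -0.37 without it, and all 6 were negative in both cases. Whether the libraries differed in hour of collection or in feeding was not tested.

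**Figure D4:**
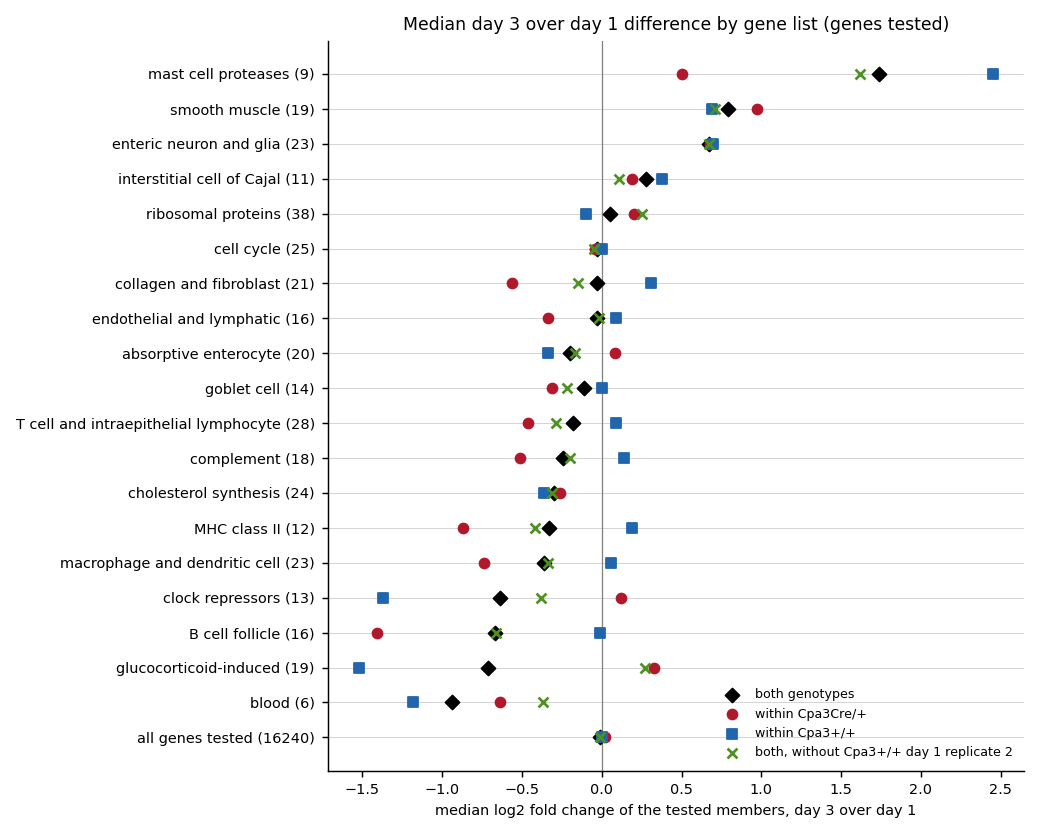
Median log2 fold change of day 3 over day 1 for 19 gene lists and for all genes tested (numbers of tested members in brackets), in both genotypes, within Cpa3Cre/+, within Cpa3+/+, and in both without Cpa3+/+ day 1 replicate 2. Muscle and nerve lists keep their place in all 4 readings, while the glucocorticoid-induced list is at -0.71 with and 0.27 without that library.

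Over both genotypes, medians of the lining cell lists lay near 0, and several had opposite signs within the genotypes. The 25 cell cycle genes had a median of -0.03, the 14 goblet cell genes tested -0.11, the 16 Paneth cell genes tested 0.02, the 16 stem cell genes 0.13 and the 20 enterocyte genes -0.20. The median of Paneth cell genes was -0.52 within Cpa3Cre/+, with 2 of 16 positive, and 0.44 within Cpa3+/+, with 15 of 16 positive. That of stem cell genes was -0.18 within Cpa3Cre/+ and 0.42 within Cpa3+/+. That of enterocyte genes was 0.08 within Cpa3Cre/+ and -0.34 within Cpa3+/+. Within Cpa3+/+ 1 of 20 was positive and 4 were lower at an unadjusted p under 0.05, where 4.39% of all genes were. Without Cpa3+/+ day 1 replicate 2 the medians within Cpa3+/+ were 0.19, 0.17 and -0.37 for the Paneth, stem cell and enterocyte lists. These differences between the genotypes were not tested for whole lists. Mgam, the maltase of the brush border, was at -0.64 ± 0.28, and Slc5a4b, a sugar sensor of the transporter family, at 0.42 ± 0.18. The 11 genes tested of the epithelial response to type 2 cytokines had a median of -0.45, with 0 at an unadjusted p under 0.05. It was -0.73 within Cpa3Cre/+, with 0 of 11 positive, and -0.06 within Cpa3+/+. Without Cpa3+/+ day 1 replicate 2 it was -0.67 over both genotypes and -0.52 within Cpa3+/+. In that case 3 of the 11 were lower at an unadjusted p under 0.05, where 4.17% of all genes were. The 12 type 2 cytokine and eosinophil genes tested had a median of -0.10, with 0 at an unadjusted p under 0.05. Without the same library the median was -0.17, and 2 were lower at that level. The 16 tuft cell genes tested had a median of 0.22, with Trpm5, their cation channel, at 0.48 ± 0.19 without overlap. Egr1, an immediate early gene, was at 0.92 ± 0.29, and the small heat shock gene Hspb1 at 1.03 ± 0.29. Aqp8, a water channel, had 12.9 to 26.5 CPM on day 3 and 3.12 to 13 CPM on day 1 (1.20 ± 0.38), with the lowest day 3 library just below the highest day 1 library. Ppara, a regulator of fat oxidation, had 13.5 to 16.2 CPM on day 3 and 39.6, 9.13, 27, 89.8 and 55.2 CPM on day 1 (-1.41 ± 0.49). The spread on day 1 was far wider than on day 3.

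Whether the day 3 difference itself differed between the genotypes was tested gene by gene. Of 16240 genes, 0 passed after adjustment with edgeR (smallest adjusted p = 0.322), 965 (5.94%) had an unadjusted p under 0.05, and DESeq2 called 14. Within a single genotype, edgeR called 0 genes in Cpa3Cre/+ and 0 in Cpa3+/+, and the genes at an unadjusted p under 0.05 numbered 667 in Cpa3Cre/+ and 1638 in Cpa3+/+. DESeq2 called 24 genes in Cpa3Cre/+ and 50 in Cpa3+/+. The 10 genes of smallest p in the difference were Scand1, Pcsk1n, Tpgs1, H2-Q5, Hist1h2al, Jak3, Eva1b, Spi1, Ssbp4 and Emilin1, and each was lower on day 3 within Cpa3Cre/+ and higher within Cpa3+/+ in its fitted value. Scand1, a SCAN domain protein, had 0.879 and 0.398 CPM in Cpa3Cre/+ and 22.2 and 36.8 CPM in Cpa3+/+ libraries on day 3. On day 1 it had 4.18 and 8.41 CPM in Cpa3Cre/+ and 3.49, 2.89 and 0.534 CPM in Cpa3+/+ libraries. Spi1, the myeloid transcription factor PU.1, had 5.21 and 3.88 CPM in Cpa3Cre/+ and 9.01 and 9.82 CPM in Cpa3+/+ libraries on day 3, against 9.34 and 15.2 CPM in Cpa3Cre/+ and 5.42 to 7.13 CPM in Cpa3+/+ libraries on day 1. For Des, Grem1 and Prph the difference between the genotypes was 0.27 ± 0.62, 0.00 ± 0.47 and -0.42 ± 0.43, which does not show that the genotypes act alike.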

How the data were processed

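Whole jejunum without fat and Peyer's patches was sequenced as stranded RNA libraries, per the labels' protocols. Reads were aligned with STAR to the mouse genome (mm10, GRCm38) and assigned to genes with featureCounts (Subread version 1.5.1); these names come per the submitters' processing notes. The strand setting of the counting is not given in the sources used here, so antisense partners cannot be told apart. The deposited values are raw counts per gene, used as deposited. Gene names and coordinates came from GENCODE vM21, and promoter windows from RefSeq.

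The 9 libraries were filtered with filterByExpr by group (16240 genes), scaled with TMM factors and tested with edgeR 4.0.16 in R 4.3.3 (robust quasi-likelihood F test, two-sided, genotype as covariate, 6 residual degrees of freedom). Within-genotype differences and their contrast came from a model of 4 group means with 5. P-values were adjusted by the Benjamini-Hochberg method over all genes, with a threshold of 0.05. Approximate standard errors were obtained by dividing each absolute log2 fold change by the root of its F statistic. CPM values use the TMM factors. DESeq2 1.42.0 was an alternative. Tested on simulated counts of 16240 genes for this comparison, the fit recovered 50% of genes changed 2-fold and 92% of genes changed 4-fold. It also called 14 unchanged genes. The simulated libraries shared a common mean profile, with no genotype difference and no library standing apart. These shares need not hold for the real libraries.

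Gene lists, rules and the comparison itself were chosen with earlier results of these data known. The rule named, per direction, the 15 called genes of largest change, filled up, as none was called, by those of smallest p, all with a mean of at least 1 CPM on either day and with Xist, Y-linked genes, predicted genes and antigen receptor segments left out. It added the 2 members of smallest p of each list (none was called), Cpa3, Mcpt1, Mcpt2, Fcer1a and Kit, and the 10 genes of smallest p in the difference between genotypes. Genes chosen after their values were seen were Actg2, Myh11, Acta2, Tagln, Synm, Cnn1, Tpm2, Myocd, Jph2, Dmpk, Hand1, Hand2, Vip, Calcb, Nmu, Ret, Hmgcs1, Sqle, Ighm, Igha, Mcpt4, Pdk4, Adgre1 and the variable segments. Some genes that the rule named are not reported here.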

Additional observations from a re-analysis of the deposited data

Results flagged for a closer look

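For the sum of each list and for 5 mast cell genes, it was asked in each day whether 1 library lay far from the rest of its day (4 libraries on day 3, 5 on day 1). Chance gives about 1 in 20 for a single group. The groups are not independent, as lists share genes and all rest on the same libraries, and each day holds both genotypes. Of 118 such groups 15 held one.

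Of these, 7 were Cpa3+/+ day 1 replicate 2. Its summed level was 14240 CPM for fasting and fatty acid oxidation genes (3571 to 5397 CPM in the other day 1 libraries), 9852 CPM for glucocorticoid-induced genes (911 to 1416 CPM), 1403 CPM for clock repressors (466 to 730.8 CPM) and 2091 CPM for p53 targets (578.5 to 775.2 CPM). It was 12490 CPM for epithelial alarm and antimicrobial genes (4928 to 6543 CPM), 14580 CPM for cytochrome P450 genes (4067 to 6681 CPM) and, on the low side, 174 CPM for interstitial cell of Cajal genes (205.6 to 217.6 CPM).

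Cpa3Cre/+ day 1 replicate 2 stood out for MHC class II at 2126 CPM (1100 to 1349 CPM in the other day 1 libraries), B cell follicle genes at 185.8 CPM (64.16 to 75.55 CPM) and macrophage and dendritic cell genes at 845.1 CPM (583.3 to 642.6 CPM). Cpa3+/+ day 1 replicate 3 stood out for mast cell proteases at 167.7 CPM (27.21 to 56.76 CPM), and for Mcpt1, Mcpt2 and Fcer1a at 111.2, 36.77 and 3.357 CPM. On day 3, Cpa3Cre/+ replicate 1 had 1609 CPM of glucocorticoid-induced genes, against 1083 to 1127 CPM in the other 3 libraries.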

How the results depend on the processing

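The count of 0 calls held in the comparison over both genotypes, within each genotype and in the difference between them with DESeq2 size factors, with sex as a covariate, with female libraries alone and with all 23 libraries, also less Cpa3+/+ day 1 replicate 2 (this last chosen after seeing the data). Without a filter on low counts the calls were 241 over both genotypes, 148 within Cpa3Cre/+, 490 within Cpa3+/+ and 319 for the difference. With DESeq2 they were 41, 24, 50 and 14 in the same order, and with DESeq2 without Cpa3+/+ day 1 replicate 2, chosen after seeing the data, 104, 155, 112 and 71, where 38 of the 41 were called in both. The cause was not tested; the median prior degrees of freedom of the edgeR fit were 4.69 with the filter and infinite without. With single libraries left out the calls ranged from 0 to 0 over both genotypes, within Cpa3+/+ and for the difference, and from 0 to 1 within Cpa3Cre/+ (1 without Cpa3+/+ day 1 replicate 2).

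Between same-numbered libraries, correlations of deviations from the group mean were -0.214 in Cpa3Cre/+, and -0.0632 and 0.0219 in Cpa3+/+. In a group of 2 libraries the deviations are mirror images, so these values cannot decide whether the numbers pair the libraries. In Cpa3Cre/+ replicate 1 was female and replicate 2 male on both days. With the replicate block the calls were 0 over both genotypes, 0 within Cpa3Cre/+, 6 within Cpa3+/+ and 1 for the difference.

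Of the log2 fold changes of named genes over all alternatives, 2876 kept their direction and side of the threshold, 170 passed it in an alternative and 9 turned round. Those were Pdk4 without Cpa3+/+ day 1 replicate 2 (0.27, also with DESeq2, and 0.29 with all other libraries), Igha with females alone (0.25) and without either Cpa3Cre/+ replicate 2 (0.14 for day 1, 0.05 for day 3), Pnliprp2 with females alone (0.02) and without Cpa3Cre/+ day 3 replicate 1 (0.05), and Rps2 without Cpa3Cre/+ day 1 replicate 1 (-0.01). Over single libraries left out, these genes ranged from -1.55 to 0.27 (Pdk4), -0.34 to 0.14 (Igha), -0.44 to 0.05 (Pnliprp2) and -0.01 to 0.27 (Rps2). Genes near 1 CPM rest on few counts per library, and differences in them are the least certain.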
